A study of Caenorhabditis elegans with 2 samples.

Results

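Of 19973 protein-coding genes on the nuclear chromosomes of Caenorhabditis elegans, 81 were taken as cytoplasmic ribosomal protein genes, because their name starts with rpl-, rps- or rla- followed by a number. The large subunit accounted for 50 of them, including the 3 acidic stalk genes rla-0, rla-1 and rla-2, and the small subunit for 31. The data were lists of genomic regions enriched in ELT-3 ChIP-seq, in which DNA fragments cross-linked to a protein are precipitated with an antibody and sequenced. All samples were mixed-stage embryos of strain OP75, pooled male and female and of unknown age, with genotype unc-119(ed3) III; wgIs75. The transgene wgIs75 supplies ELT-3 with an eGFP tag, so the signals come from a precipitation aimed at tagged ELT-3 in 1 transgenic strain, and the labels give elt-3 as the antibody target. There was 1 group with 2 biological replicates, and the control named in the labels was not analysed here. Embryos were processed whole, so the number of cells that carry the protein and its occupancy per cell cannot be told apart.

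The ribosome is built from ribosomal RNA and from a set of small, mostly basic proteins, each made from its own gene and needed in nearly equal amounts. The small subunit reads the messenger RNA, and the large subunit joins amino acids and passes the growing chain through its exit tunnel. ELT-3 is a zinc-finger transcription factor of the GATA family, known for its role in the hypodermis, the worm's skin, and GATA factors recognise short sequences built around the letters GATA.

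Each gene was scored by summits, the base within a bound region where the signal is highest, that lay between 1000 bp upstream and 500 bp downstream of its annotated 5′ end. A reproducible summit came from the authors' optimal IDR list, which held 637 regions. IDR, the irreproducible discovery rate, measures how alike regions rank in replicates. The list's regions were also the 637 regions of highest signal in a longer list called on the pooled replicates, with 12702 regions. Membership thus matched a cut on pooled signal, and a listed region need not rank alike in both replicates. That of rpl-9 ranked 10062 in replicate 1 and 162 in replicate 2. The lists of replicate 1 and replicate 2 were longer still, at 19168 and 26381 regions. Per the file labels, the pooled list and both replicate lists hold background as well as peaks, as input for the IDR step, so a summit in them is not by itself a called peak. Signal is the authors' enrichment score per region and ran between 42.0 and 1298 in the reproducible list. The read depth behind it is unknown, and signals and ranks are compared only within a list. Intervals given beside a share are exact binomial 95% intervals, which cover counting error over genes or regions and nothing else.

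Reproducible ELT-3 summits lay in the 5′ windows of 20 of the 81 ribosomal protein genes, a share of 24.7% (interval 15.8 to 35.5), against 1.79% of all protein-coding genes. The small subunit had 9 of its 31 genes bound in this sense, 29.0% (14.2 to 48.0). The large subunit had 11 of 50, 22% (11.5 to 36), and the intervals of the subunits overlap over much of their range. In the pooled list 65 ribosomal protein genes had a summit, 80.2% (69.9 to 88.3), against 25.4% of all protein-coding genes, with 25 of 31 for the small subunit and 40 of 50 for the large one. Replicate 1 alone gave 65 ribosomal protein genes, against 33.6% of all genes, and replicate 2 alone gave 70, 86.4% (77.0 to 93.0), against 41.8% of all genes. A summit in both replicate lists was present at 60 of the 81, 74.1% (63.1 to 83.2), against 21.1% of all genes. Only 6 genes had no summit in any list, 7.41% of the family against 45.5% of all genes.

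The strongest of the family was rpl-3, which encodes a large-subunit protein that reaches towards the peptidyl transferase centre. Its summit had a pooled signal of 127, rank 29 of 12702, and lay 288 bp upstream of the 5′ end. It ranked 39 with a signal of 70.7 in replicate 1 and 22 with a signal of 54.5 in replicate 2, so it stood near the head of every list. rpl-35, whose product sits at the mouth of the exit tunnel, followed with a pooled signal of 102 at rank 51 and a summit 444 bp upstream, with ranks 93 and 23 in replicates 1 and 2. rpl-1, for the mobile stalk near the exit site of transfer RNA, had 100.5 at rank 54, 278 bp upstream, with ranks 60 and 81. These 3 genes were the family's only members among the 60 highest pooled regions.

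The other large-subunit genes with a reproducible summit had pooled signals between 44.3 and 88.9. rpl-20 had 88.9 and was at rank 75, 92 and 74 in the pooled, replicate 1 and replicate 2 lists. rpl-12, for a protein at the base of the acidic stalk, had 80.8 with ranks 95, 87 and 167, and its summit, 31 bp upstream, was the nearest to a 5′ end. These ranks put both genes within the highest 1% of the pooled list and of each replicate list. rpl-15 had 79.1 with ranks 105, 114 and 166. rpl-22 had 67.4 with ranks 181, 165 and 362. rpl-24.1 had 58.1, and rpl-4, for a protein that lines the exit tunnel, had 53.4 with ranks 327, 328 and 594. All of these kept a rank within 637 in both replicates, whereas the remaining 2 large-subunit genes did not. rpl-9 had a pooled signal of 45.2 at rank 518, which came from replicate 2, where it ranked 162, while replicate 1 had it at 10062. rpl-23 had 44.3 at rank 556, with rank 1237 in replicate 1 and 529 in replicate 2, and was the lowest of the family inside the reproducible list.

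Small-subunit genes with a reproducible summit started lower, at 71.6 for rps-19, whose human counterpart is mutated in Diamond-Blackfan anaemia. It ranked 145 in the pooled list, 263 in replicate 1 and 101 in replicate 2. rps-1 had 62.8 with ranks 214, 228 and 375, and rps-28 had 56.6 with ranks 280, 508 and 221. rps-12 had 56.1 with ranks 286, 446 and 374. Like rps-10, which shares the summit of rpl-24.1, these 4 genes were within rank 637 in both replicates. rps-20 had 50.6 at rank 392, ranking 1602 in replicate 1 and 163 in replicate 2. rps-4 had 46.8 at rank 470, with ranks 344 and 1203, and rps-22 had 45.4 at rank 513, with ranks 335 and 2789. These last 3 genes were within rank 637 in 1 replicate only, rps-20 in replicate 2 and the others in replicate 1. rps-0, for the protein at the back of the small subunit that in mammals is also described as a laminin receptor, had 45.1 at rank 524, with ranks 627 and 724. With 2 replicates the order of neighbouring genes was not tested.

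**Figure D1:**
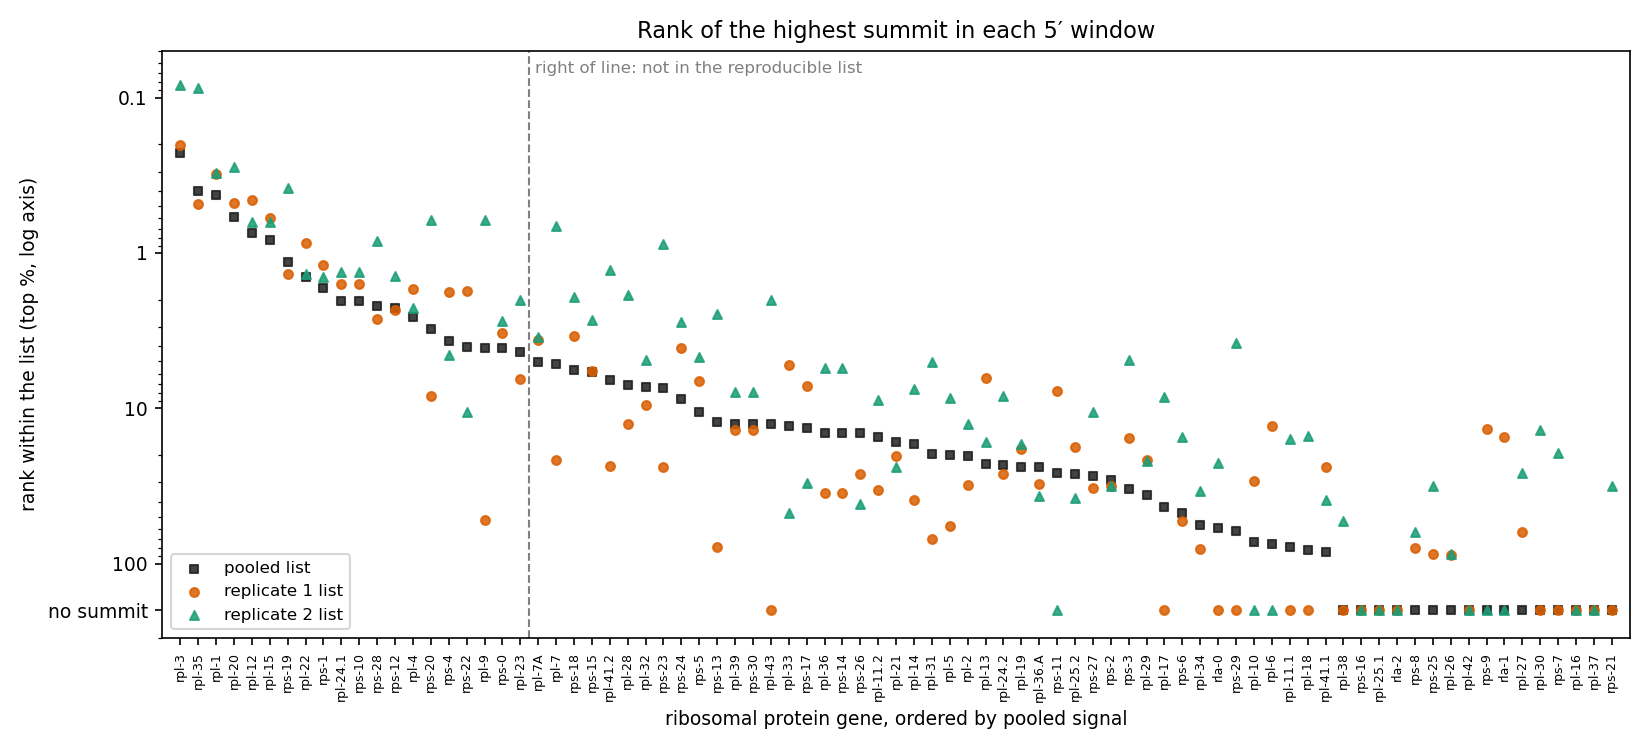
Rank of the highest summit in each ribosomal protein gene's 5′ window, as the top percent of its own list on a log axis, for the pooled list (squares), replicate 1 (circles) and replicate 2 (triangles); genes run left to right by pooled signal, and symbols on the lowest line mark genes with no summit. The 20 genes left of the dashed line have a reproducible summit, rpl-3 is highest in all 3 lists, and the replicates spread apart towards the right.

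Below the end of the reproducible list the family went on without a gap. The first gene outside it was rpl-7A, with a pooled signal of 42.0 at rank 640, ranks 693 and 916 in replicates 1 and 2, and a summit 75 bp upstream. rpl-7 had 41.5 at rank 660 and was split, with rank 4118 in replicate 1 and 177 in replicate 2. rps-18 had 40 at rank 717 with ranks 661 and 509, and rps-15 had 39.6 at rank 744 with ranks 1099 and 709. rpl-41.2 had 37.5 with ranks 839, 4509 and 340, and rpl-28 had 36.5 with ranks 905, 2431 and 496. rpl-32 had 36.1 with ranks 930, 1818 and 1295, and rps-23, for a protein of the decoding centre, had 36 with ranks 937, 4596 and 232. Replicate 2 placed most of these 8 genes higher than replicate 1 did. In all, 45 genes were in the pooled list but not in the reproducible one, with signals between 14.9 and 42.0 and a median of 25.1, and 36 of them had a summit in both replicate lists.

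Rank within a list shows the same family in another way. The median ribosomal protein gene with a pooled summit had it in the top 12.7% of that list, against the top 39.6% for all genes with one. In replicate 1 the medians were 13.9% for the family and 40.8% for all genes, and in replicate 2 they were 5.55% and 37.8%. The highest 10% of the replicate 2 list touched 43 ribosomal protein genes, 53.1% of the family against 7.52% of all genes. The highest 10% of the replicate 1 list touched 29, 35.8% against 5.02%. Taking only the 637 highest regions of each replicate, replicate 1 gave 17 of the family, against 1.71% of all genes, and all 17 were among the 20 with a reproducible summit. Replicate 2 gave 23, against 1.91% of all genes, which were 17 of the 20 plus rpl-7, rps-18, rpl-41.2, rpl-28, rps-23 and rpl-43. In both at once were 14 ribosomal protein genes, against 0.941% of all genes, and the other 6 with a reproducible summit were in the highest 637 of 1 replicate alone. The list itself was made from both replicates, so presence of its genes in a replicate list is not independent of it.

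**Figure D2:**
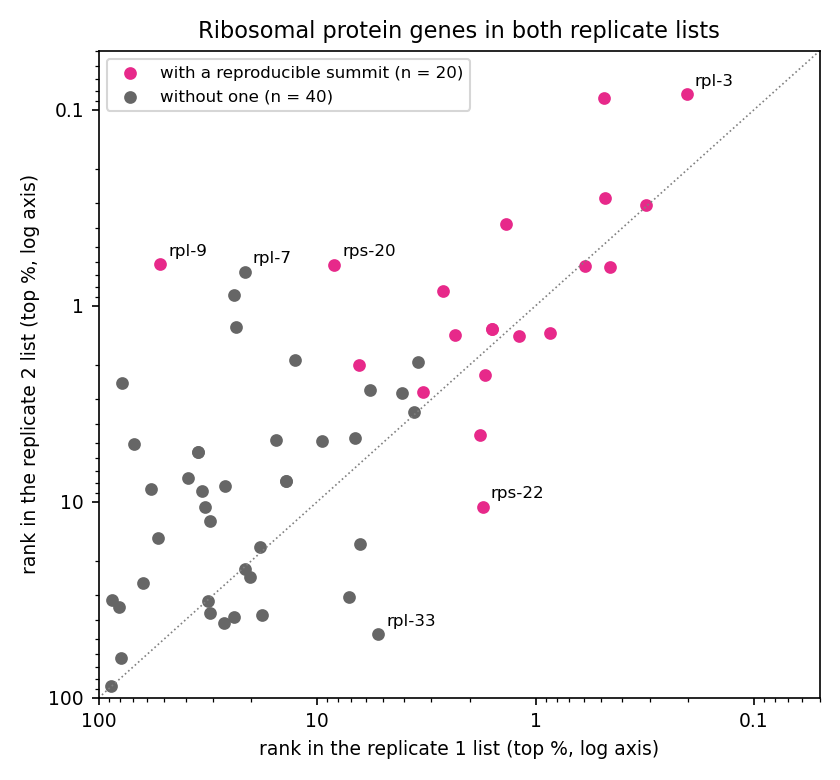
Rank in the replicate 1 list (horizontal) against rank in the replicate 2 list (vertical), both as top percent on log axes, for the 60 ribosomal protein genes with a summit in both; higher ranks lie up and to the right, the dotted line marks equal rank, and genes that share a summit overlap. Genes with a reproducible summit (n = 20) fill the upper right, with rpl-9 and rps-20 far above the line and rps-22 below it.

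The summits sat at a narrow distance from the genes, and the space upstream of the family was narrow too. Where the nearest upstream gene ran in the opposite direction, the median gap to it was 566 bp, against 1404 bp for all genes. Where it ran in the same direction more than 200 bp away, the median gap was 593 bp, against 1182 bp. How far these gaps bear on the distances below was not tested. All 20 reproducible summits were upstream of the 5′ end, at a median of 279 bp, with quartiles of 259 and 336.5 bp and a range of 31 to 447 bp. For all genes with a reproducible summit the median was 244.5 bp with quartiles of 123.25 and 464.25 bp, and 93.9% were upstream. The interval between 200 and 300 bp upstream held 10 of the 20. In the pooled list the family's median was 295 bp, with quartiles of 247 and 375 bp, and 63 of 65 summits were upstream, against 79.3% for all genes and a wider range, with quartiles of 41 and 507 bp. The summits downstream of the 5′ end belonged to rpl-19, at 234 bp, and rpl-11.1, at 463 bp. Replicates also placed the summit alike: for the 60 genes in both replicate lists the highest summits were a median of 37 bp apart, and 47 lay within 100 bp, 78.3% against 45.8% of all genes in both lists, whose median was 123 bp.

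**Figure D3:**
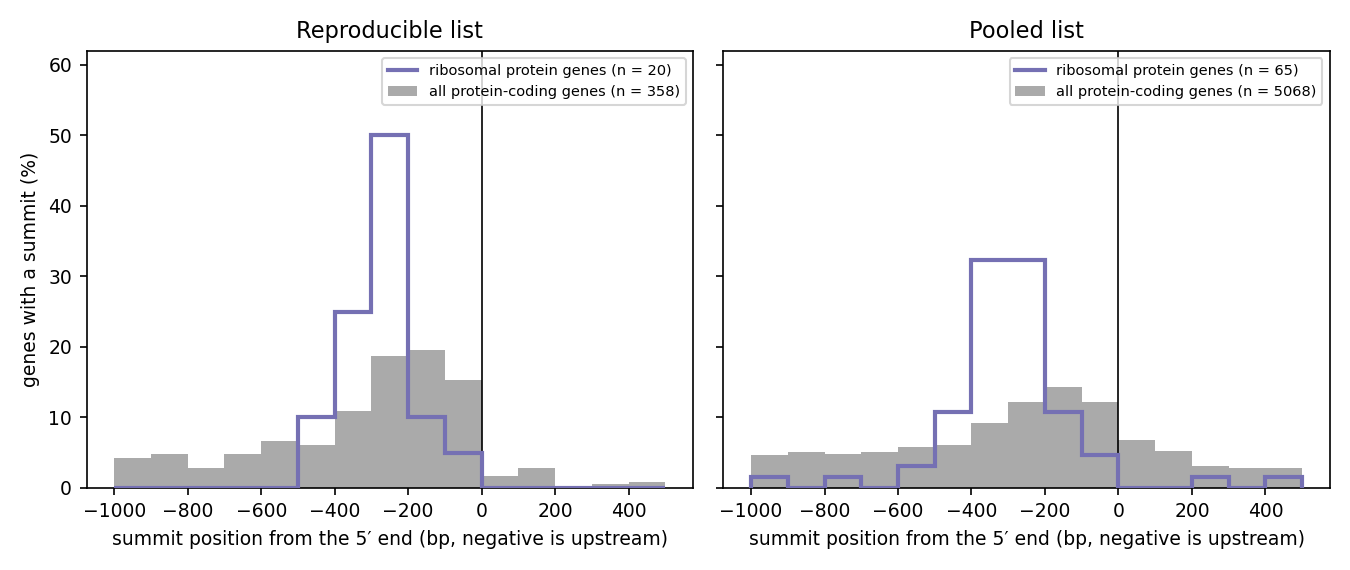
Position of the highest summit relative to the annotated 5′ end, in bins of 100 bp with negative values upstream, for ribosomal protein genes (line) and all protein-coding genes (grey), as a percent of genes with a summit in the reproducible list (left) and the pooled list (right). The line peaks between 200 and 300 bp upstream in the reproducible list and between 200 and 400 bp upstream in the pooled list. The grey bars peak between 100 and 200 bp upstream in both lists and have longer tails.

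The sequences under 12 of the 19 summits are given below, from the highest signals to the lowest. They were kept by location, so they are not a representative picture of the 19. Left out were rpl-1, rpl-12, rps-19, rpl-4, rps-20, rps-0 and the summit shared by rpl-24.1 and rps-10. That shared summit holds a GATA sequence, and rps-19, rpl-4, rps-20 and rps-0 hold CAGCCA and AGCCAA. The printed sequences are 101 bp windows centred on the reproducible summit, in the coordinates of genome build ce11. They are written 5′ to 3′ on the strand of the ribosomal protein gene. They were read from the RefSeq genome of the same assembly, WBcel235. Capitals mark, on either strand, the GATA sequences AGATAA or AGATAG or TGATAA or TGATAG. They also mark the 6-base sequences ACCGTA or ACTCAG or CAGCCA or AGCCAA or TACGCA, which the search described further on returned. The lines run by signal. rpl-35, rps-28 and rps-12 hold none of these sequences, rps-4 is the only line with a GATA sequence, and rps-22, rpl-9 and rpl-23 carry ACTCAG.
rpl-3, chrIII:3867516-3867616, plus strand: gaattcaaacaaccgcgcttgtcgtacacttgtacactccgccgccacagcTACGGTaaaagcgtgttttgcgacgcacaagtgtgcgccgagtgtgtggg
rpl-35, chrIII:7854640-7854740, plus strand: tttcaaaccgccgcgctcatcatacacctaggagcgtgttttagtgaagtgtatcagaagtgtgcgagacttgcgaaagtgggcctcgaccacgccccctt
rpl-20, chrIV:4750014-4750114, minus strand: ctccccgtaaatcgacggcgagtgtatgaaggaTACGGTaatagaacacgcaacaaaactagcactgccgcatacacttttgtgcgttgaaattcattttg
rpl-15, chrIV:654870-654970, minus strand: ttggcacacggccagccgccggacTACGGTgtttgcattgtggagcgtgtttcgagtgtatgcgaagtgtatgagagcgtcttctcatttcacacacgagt
rpl-22, chrII:5055310-5055410, plus strand: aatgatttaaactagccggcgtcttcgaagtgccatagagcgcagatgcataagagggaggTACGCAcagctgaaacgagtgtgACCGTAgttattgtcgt
rps-1, chrIII:4475604-4475704, plus strand: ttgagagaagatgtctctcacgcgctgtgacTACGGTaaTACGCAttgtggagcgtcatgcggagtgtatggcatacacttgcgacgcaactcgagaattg
rps-28, chrIV:1659194-1659294, plus strand: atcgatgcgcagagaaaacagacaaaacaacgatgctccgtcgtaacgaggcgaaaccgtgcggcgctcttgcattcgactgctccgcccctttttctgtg
rps-12, chrIII:5679056-5679156, plus strand: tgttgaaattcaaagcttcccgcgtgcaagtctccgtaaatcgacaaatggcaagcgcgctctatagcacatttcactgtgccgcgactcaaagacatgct
rps-4, chrIV:7085022-7085122, minus strand: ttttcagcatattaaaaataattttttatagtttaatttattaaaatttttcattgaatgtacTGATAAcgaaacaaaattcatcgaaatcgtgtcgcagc
rps-22, chrIII:1950362-1950462, plus strand: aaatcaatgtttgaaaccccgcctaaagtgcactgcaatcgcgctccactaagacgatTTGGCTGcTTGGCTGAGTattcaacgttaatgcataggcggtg
rpl-9, chrIII:7573061-7573161, minus strand: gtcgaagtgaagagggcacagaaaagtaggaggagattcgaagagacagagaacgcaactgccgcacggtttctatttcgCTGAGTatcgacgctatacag
rpl-23, chrIII:5706388-5706488, minus strand: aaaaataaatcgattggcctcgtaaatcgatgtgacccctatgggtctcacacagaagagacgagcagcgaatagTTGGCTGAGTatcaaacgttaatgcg

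Few of these sites held a GATA sequence. Of the 19 distinct reproducible regions that the 20 genes account for, 2 held 1 of the 4 GATA sequences within 50 bp of the summit, 10.5% (1.30 to 33.1), against 234 of the other 595 nuclear reproducible regions, 39.3%. They were the region of rps-4, with the TGATAA shown above, and the region shared by rpl-24.1 and rps-10. Among all 277 nuclear reproducible regions that lie in any gene's 5′ window the share was 29.2%, which the family's interval includes. The 43 weaker pooled summits of the family, outside the reproducible list, held a GATA sequence in 3 cases, 6.98% (1.46 to 19.1), against 25.1% of the weaker summits of other genes. Over the 500 bases upstream of the 5′ end, 57 of the 81 ribosomal protein genes had a GATA sequence, 70.4% against 71.4% of all protein-coding genes. Those with a reproducible summit had one in 9 of 20 cases, 45%, and those without in 48 of 61, 78.7%. Whether ELT-3 contacts DNA directly at the family's summits was not tested.

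Other short sequences put forward by an earlier search of these data were counted in the same way. CTTATC was at 0 of 19 family summits, which allows up to 17.6%, against 14.4% of the 277 nuclear reproducible summits in 5′ windows and 19.9% of all 614. GAGAGA was at 1, 5.26%, against 25.6% of those in windows and 27.4% of all. CGTCTC was at 2, against 19.5% and 20%, and ACGCAG at 4, 21.1% against 18.4% and 16.8%. At the 43 weaker summits of the family ACGCAG was at 14% and CGTCTC at 11.6%, against 6.24% and 7.55% of the weaker summits of other genes. GAGAGA was at 9.30% of them against 13.1%, and CTTATC at none against 6.87%. The sequences thus did not share 1 direction. Base composition differed as well, with a median GC content of 48.5% (range 22.8 to 55.4) for the family's summits and 44.6% for the other nuclear reproducible summits. For weaker summits the medians were 48.5% for the family and 36.6% for other genes. The part of GC content in the sequence counts was not tested.

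A search of the 2079 different 6-base sequences at the 19 summits gave 5 whose share exceeded that at other nuclear reproducible summits by most, and their counts there are a description of how they were chosen. ACCGTA was at 7 summits, 36.8% against 2.52% of the other nuclear reproducible summits. The genes were rpl-3, rpl-20, rpl-15, rpl-22, rps-1, rps-20 and the pair rpl-24.1 and rps-10, and the sequence began between 217 and 365 bp upstream of the gene. At the summit of rpl-3 it lies 3 bp from the highest point. ACTCAG was at 6 summits, against 1.85%, CAGCCA at 6, against 3.03%, AGCCAA at 6, against 3.70%, and TACGCA at 6, against 4.87%. ACTCAG overlaps with CAGCCA, which overlaps with AGCCAA in turn, and the run they form, ACTCAGCCAA, chosen after its counts were seen, stood whole at 4 of the 19, those of rpl-4, rps-20, rps-22 and rpl-23, and at 0 of the other 595. Of the 19 regions, 5 held none of the 5 sequences.

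The weaker summits of the family had no part in that search. ACCGTA was at 9 of these 43, 20.9% (10 to 36), against 3.53% of the weaker summits of other genes. CAGCCA was at 7, 16.3% against 2.46%, and ACTCAG at 5, 11.6% against 1.67%. AGCCAA was at 4, 9.30% against 3.59%, and TACGCA at 5, 11.6% against 3.39%. The run ACTCAGCCAA was at 1 of 43, against 1 of 4424. In the 500 bases upstream of the gene ACCGTA was present at 36 of all 81 ribosomal protein genes, 44.4% against 13.9% of all protein-coding genes. The share was 45% for the 20 genes with a reproducible summit and 44.3% for the 61 without, so presence of ACCGTA was nearly equal in genes with and without the reproducible call. The others were at 21.0% to 28.4% of the family, against 9.37% to 18.3% of all genes, and were more frequent in genes with the reproducible call. TACGCA was at 45% of those with it and 19.7% of those without, ACTCAG at 35% and 16.4%, CAGCCA at 40% and 24.6%, and AGCCAA at 30% and 27.9%. These letters had been chosen at the reproducible summits, so that order is no independent result. A match is a description of letters and says nothing of which protein reads them.

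Most of these regions lay between genes that start close together. Of the 19 regions, 17 were outside any annotated gene and 2 were inside non-coding RNA genes, at rps-1 and at rpl-24.1 with rps-10. The 5′ windows of at least 2 protein-coding genes held the summit in 16 of 19 cases, 84.2%, against 81 of all 277 nuclear regions in windows, 29.2%. The family's shorter upstream gaps, given above, were not allowed for in this comparison. Only rpl-3, rpl-35 and rps-4 had a summit to themselves. The ribosomal protein gene had the nearest 5′ end at 11 regions. At the other 8 a neighbour was nearer. rpl-20 was 286 bp away, against 176 bp for Y17G9B.5. rpl-22 was 256 bp away, against 181 bp for ify-1, the securin that guards the separation of sister chromatids. rps-12 was 192 bp away, against 101 bp for ska-3, a spindle and kinetochore protein. rps-0 was 334 bp away, against 39 bp for rbg-3. The nearer genes at rps-19, rpl-4, rps-20 and rpl-9 were hsr-9, B0041.8, ekl-4 and lpd-7. The lists assign no gene, so such a summit counts equally for both neighbours. Counted for the nearest gene alone and at any distance, the summits gave 11 ribosomal protein genes in place of 20, 13.6% of the family, against 572 of all protein-coding genes in place of 358, 2.86%. rpl-12 shared its summit with lin-54, the DNA-binding subunit of the worm's DREAM complex, whose 5′ end was 362 bp away. rps-1 shared its summit with ifet-1, a repressor of translation, at 504 bp, and rps-22 with polh-1, a DNA polymerase that copies past lesions, at 143 bp. rpl-1 and rpl-15 shared theirs with Y71F9AL.9 and K11H12.8. rps-28 and rpl-23 shared theirs with Y41D4B.4 and swp-1, at 866 and 913 bp, which were not their nearest upstream genes. Those were nhr-274, with a gap of 14392 bp to rps-28, and hpo-28, on the same strand as rpl-23 with a gap of 589 bp.

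The count of genes with a summit varied with the arrangement of the upstream neighbour. The nearest upstream protein-coding gene ran in the opposite direction for 53 ribosomal protein genes, 65.4% of the family against 42.2% of all genes. Of these 53, 17 had a reproducible summit, 32.1% (19.9 to 46.3), against 2.74% of all genes so arranged, and 48 had a pooled summit, 90.6% (79.3 to 96.9) against 29.3%. The upstream gene ran in the same direction more than 200 bp away for 21, of which 3 had a reproducible summit, 14.3% against 1.09%, and 16 a pooled summit, 76.2% against 22.4%. The intervals of these arrangements overlap, and the difference between them was not tested. At rps-16, rpl-25.1, rla-1, rpl-27 and rpl-16 it ran in the same direction and ended within 200 bp, an arrangement typical of operons. None of these 5 had a reproducible or pooled summit, which allows up to 52.2%, against 22.9% of all 1876 genes so arranged in the pooled list. The limit of 200 bp was chosen after the distances were seen, and the next such gap in the family was 356 bp. Of the first genes of these runs, only fib-1, which encodes the ribosomal RNA methylase fibrillarin and lies 109 bp before rps-16, had a reproducible summit. It lay 64 bp upstream of the start of fib-1, with a pooled signal of 43.9. lias-1, before rpl-16, had a pooled signal of 28.0, and glit-1, before rpl-25.1, had 20.7. C53H9.2, before rpl-27, had 15.2. These pooled summits were outside the reproducible list and are not by themselves called peaks. Y37E3.8, before rla-1, had no pooled summit.

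**Figure D4:**
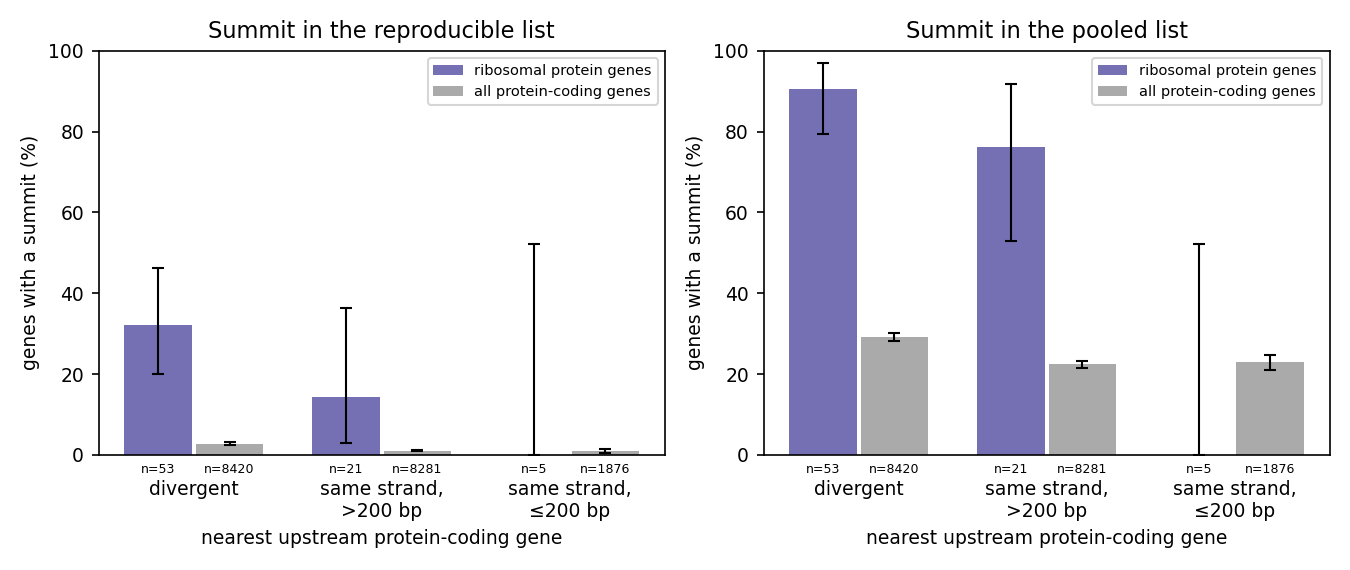
Percent of genes with a summit in the reproducible list (left) and the pooled list (right), for ribosomal protein genes (purple) and all protein-coding genes (grey), by the direction and distance of the nearest upstream protein-coding gene; bars are shares, error bars exact binomial 95% intervals, and n is the number of genes. In both lists the family's share is highest with a divergent neighbour, and it is 0 of 5 where the neighbour on the same strand ends within 200 bp.

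Ribosomal protein genes also shared summits with each other. rpl-24.1 and rps-10 start 610 bp apart in opposite directions, with 1 reproducible summit between them, 260 bp upstream of rpl-24.1 and 350 bp upstream of rps-10. It ranked 259 in the pooled list, 303 in replicate 1 and 348 in replicate 2. rpl-39 and rps-30 shared a pooled summit of 29.1 at rank 1612, close to the middle of the 499 bp between them, and rpl-36 and rps-14 shared one of 28.0 at rank 1823. Each of these 3 pairs joins a large-subunit with a small-subunit gene, so 6 of the genes counted stand on 3 summits.

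Genes that share a number, paired here by name only, differed within a pair in the pooled list. rpl-24.1 had a reproducible summit, whereas rpl-24.2 had a pooled signal of 23.5 at rank 2954. rpl-41.2 had 37.5 at rank 839, whereas rpl-41.1 had 14.9 at rank 10640, near the end of the list. Replicate 1 had the 2 genes nearly level, at ranks 4509 and 4585, with the rpl-41.1 summit 327 bp downstream of the 5′ end. Their difference was in replicate 2, at ranks 340 and 10239. rpl-11.2 had 27.4 at rank 1940, whereas rpl-11.1 had 15.2 at rank 9993, with its summit downstream of the 5′ end and no summit in replicate 1. rpl-25.2 had 22.4 at rank 3360, and rpl-25.1 had no summit in any list. The acidic stalk, which recruits translation factors to the ribosome, was weakly covered: rla-0 had 17.0 at rank 7466 with none in replicate 1, rla-1 had a summit in replicate 1 only, at rank 2951, and rla-2 had none. The genes with no summit in any of the 4 lists were rla-2, rpl-16, rpl-25.1, rpl-37, rpl-42 and rps-16. A further 10 had none in the pooled list but at least 1 in a replicate list, and 4 of these 10 had a summit in both. The positions did not always match. Replicates 1 and 2 placed it 660 and 174 bp upstream at rps-8, but 217 and 193 bp upstream at rpl-26.

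By chromosome the counts were small and were not tested against each other. Chromosome III had 8 of its 18 ribosomal protein genes with one, against 2.50% of all its genes, and chromosome IV had 5 of 18, against 1.19%. Chromosome I had 6 of 25, against 3.54%, and chromosome II 1 of 10, against 1.30%. None of the 8 on chromosome V had one, against 1.06%, nor did the 2 on chromosome X, against 1.94%, although 6 and 1 of these had a pooled summit. In the build ce11 the strongest gene, rpl-3, spans 3867854 to 3869587 on chromosome III and its region 3867497 to 3867655. rpl-35 spans 7855134 to 7855646 on chromosome III with its region at 7854615 to 7854742, and rpl-1 spans 2875398 to 2876308 on chromosome I. The regions of rpl-3 and rpl-35 were 159 and 128 bp wide, and the other 17 had the fixed width of 380 bp with the summit at the centre. Of the 19, 0 family summits had an annotated gene for rRNA, tRNA, snoRNA or snRNA within 200 bp, which allows up to 17.6%, against 60 of 614 nuclear reproducible summits, 9.77%, a share within that bound. Within 500 bp there was a snoRNA gene at 3 of 19, 15.8% (3.38 to 39.6), against any of these RNA genes at 11.2% of all 614. The distances were 272 bp for rps-12, 394 bp for rpl-24.1 with rps-10, and 445 bp for rpl-4.

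Genes of neighbouring functions set the family in context. The 24.7% of the cytoplasmic family with a reproducible summit stands against 1 of 70 genes for mitochondrial ribosomal proteins, named mrpl- or mrps-, which is 1.43%. The exception was mrpl-17, with a pooled signal of 42.5. In the pooled list the shares were 80.2% and 41.4%. The genes ubl-1 and ubq-2, whose products carry a ribosomal protein fused to a ubiquitin-like protein or ubiquitin, and rack-1, for a ribosome-bound scaffold, fall outside the name rule. None of these 3 had a reproducible summit and all 3 had a pooled one, with signals of 33 for ubl-1, 17.7 for ubq-2 and 18.7 for rack-1. Translation elongation factors had 4 of 6 with a reproducible summit (66.7%, interval 22.3 to 95.7) and 5 with a pooled one. The 4 were eef-1A.1 with 60.8, eef-1G with 59.7, eef-1A.2 with 53.6 and eef-2 with 42.6. Initiation factors had 2 of 25, 8% (0.984 to 26), with 15 in the pooled list, 60%. Of 28 ribosome biogenesis names 25 matched a gene, and 4 of these had a reproducible summit, 16% (4.54 to 36.1), with 15 in the pooled list. The biogenesis genes were fib-1, nol-58 with 56.7, larp-1 with 48.7, and lpd-7, which counts through the summit it shares with rpl-9.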

How the data were processed

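ChIP-seq of eGFP-tagged ELT-3 was measured in 2 biological replicates. The authors deposited narrowPeak lists with a signal score, an enrichment per region, and the summit's position; per the file labels the pooled and both replicate lists hold peaks and background for IDR. No source used here names the aligner, the peak caller or the score's normalization. Only lists in ce11 were used; the ce10 lists were left out. Genes came from Ensembl release 115 and sequence from RefSeq, both of WBcel235, the assembly behind ce11: chromosome names matched and all regions ended within their chromosome. Summits were assigned to every gene whose window held them, and a gene took its highest one. Intervals are Clopper-Pearson. Six-base sequences were searched on both strands of 101 bp windows. With 1 group and no control, no p-value was computed. The steps were tested on simulated summits. The members, gene lists and sequences were chosen with earlier results of these data known. Named were all genes with a reproducible summit, the next 8 by signal, genes with none, and pairs that share a number. Alternatives were other windows, anchors, thresholds, motif widths and single replicates. Python 3.11.15 packages were numpy 2.4.6, pandas 2.3.3, scipy 1.17.1 and matplotlib 3.10.9.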

Additional observations from a re-analysis of the deposited data

How the results depend on the processing

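Of 72 recomputed values, 59 stayed within the limits set, which were 1.5 times for a count, the exact interval for a share, and the replicate SD for the median position. These limits are wide, and values inside them still shifted: with the nearest gene alone the pooled count was 48 in place of 65 and the count in both replicates 42 in place of 60. Windows reaching 500 or 2000 bp upstream gave 275 or 498 of all genes in place of 358. The GATA share of family summits was 5.26% within 25 bp or for TGATAA alone. Assigning each summit to the gene of the nearest 5′ end alone gave 11 ribosomal protein genes (4 small-subunit, 7 large-subunit) and 572 of all genes, with no limit on distance. Keeping the 318 highest regions gave 13 ribosomal protein genes (5 small-subunit) and 156 of all genes. Using the 637 highest regions of 1 replicate gave 17 to 23 ribosomal protein genes, 9 to 15 of them large-subunit, and 341 to 381 of all genes. The median position was -295.5 bp from the start codon, and -289 to -278 bp by single replicates. The share of family summits with a GATA sequence was 0 to 12.5% by single replicates; without replicate 1 it was 0%. For all nuclear summits it was 23.9% within 25 bp, 52.8% within 100 bp and 24.4% for TGATAA alone. Windows reaching 500 or 2000 bp upstream, ending at the 5′ end, or set by region overlap gave 20 or 21 ribosomal protein genes. Limits are the 19 regions, 2 replicates, unknown read depth, 1 strain and no control analysed here. No paired analysis was possible because there was 1 group.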
